A study of Mus musculus with 8 samples.

Results

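Non-coding RNAs of 5 families, all parts of RNA-protein particles, were followed in CD8 T cells isolated by sorting from B16 tumours. The genes were Rn7s1 and Rn7s2 (7SL RNA), Rn7sk (7SK RNA), Rpph1 (the RNA of RNase P), Rmrp (the RNA of RNase MRP) and Vaultrc5 (a vault RNA). These 6 genes of 55228 in the transcript tables were picked by name. Their estimated counts, TPM and shares of counts in the same libraries were known at that point, so every difference between genotypes in these RNAs is a description and carries no test. B16 is a mouse melanoma line, which was given intravenously to C57BL/6 wild-type mice (WT) or to CD36 KO mice labelled with the C57BL/6 background (CD36_KO). Tumours grew for 14 days, and CD8 T cells were then sorted for total RNA. The sources used here do not give the knockout allele, the age of the mice, the sorting gates or the number of animals pooled. Sample titles name 4 lanes and a single library number for each genotype, so the 8 samples were read as 2 libraries of 4 lanes. The lanes share 1 preparation, and the spread between them is technical.

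The RNAs are transcribed by RNA polymerase III. 7SL RNA is the scaffold of the signal recognition particle, which brings ribosomes that make secreted and membrane proteins to the endoplasmic reticulum. 7SK RNA holds the elongation kinase P-TEFb (Cdk9 with a cyclin T) inactive together with Hexim proteins, and Larp7 and Mepce protect its ends. RNase P RNA is the catalytic part of the enzyme that trims the 5′ leader of precursor tRNAs, whereas RNase MRP RNA serves in ribosomal RNA maturation, and both particles share most of their proteins. Vault RNAs are short companions of the vault, a barrel-shaped particle made of the major vault protein. T cells use these RNAs as all cells do: release of P-TEFb and growth of the secretory and ribosome machinery accompany T cell activation.

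Both 7SL genes lie on chromosome 12 of GRCm38, Rn7s1 (ENSMUSG00000099021.1) at chr12:69159295-69159594 on the plus strand and Rn7s2 (ENSMUSG00000099250.1) at chr12:69361182-69361481 on the minus strand. Their transcripts of 300 bases had 0 mismatches, so no read can tell them apart, and the estimates divided the 7SL counts equally between them in every lane. Values below are therefore for their sum unless a gene is named. Another annotated copy, Rn7s6, had 53 counts (WT) and 39 counts (CD36_KO). All 16 other transcripts that share a run of 31 bases with 7SL together had 103 and 81 counts, or 0.0133% and 0.0134% of the 7SL counts, so reads assigned to copies were few beside the 7SL totals.

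Rn7sk (ENSMUSG00000065037.1) is a single transcript of 331 bases at chr9:78175303-78175633 on the minus strand. Its first 120 bases are shown 5′ to 3′ from the GENCODE M21 transcripts, with T for U, because they hold all 3 GATC stretches of the transcript (capitals), at positions 13, 42 and 64 from the 5′ end. GAUC repeats of the 5′ hairpin are known as the Hexim contact.
Rn7sk: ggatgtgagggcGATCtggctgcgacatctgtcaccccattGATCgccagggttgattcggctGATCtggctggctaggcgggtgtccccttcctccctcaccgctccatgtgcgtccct
GATC reads the same on both strands. It occurred at least 1 time in 66.4% of the 4689 GENCODE transcripts of 300 to 360 bases and at least 3 times in 9.15% of them. The letters alone are thus common at 1 copy and less so at 3. Rn7s1 and Rn7s2 hold 4 each. Another 25 transcripts shared a 31-base run with 7SK and had 182 and 88 counts together, 0.198% and 0.196% of its counts.

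Rmrp carries 2 annotated transcripts at 1 place on the minus strand of chromosome 4. The longer (ENSMUSG00000115420.1, chr4:43492783-43493063, 281 bases) extends the shorter (ENSMUSG00000088088.1, chr4:43492788-43493058, 271 bases) by 5 bases at each end, the capitals in the sequence of the longer transcript. Rpph1 (ENSMUSG00000092837.1) has 319 bases at chr14:50807449-50807767 on the minus strand, and its first 300 are shown. Capitals mark the 233 bases within 31-base runs that also stand in a transcript of Ccnb1ip1, the protein-coding gene that overlaps it.
Rmrp: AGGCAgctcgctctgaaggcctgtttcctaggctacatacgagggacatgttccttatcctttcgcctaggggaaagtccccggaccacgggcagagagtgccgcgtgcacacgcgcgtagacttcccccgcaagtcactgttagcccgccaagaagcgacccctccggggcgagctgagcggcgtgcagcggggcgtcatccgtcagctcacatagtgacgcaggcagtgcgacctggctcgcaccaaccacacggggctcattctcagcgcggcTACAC
Rpph1: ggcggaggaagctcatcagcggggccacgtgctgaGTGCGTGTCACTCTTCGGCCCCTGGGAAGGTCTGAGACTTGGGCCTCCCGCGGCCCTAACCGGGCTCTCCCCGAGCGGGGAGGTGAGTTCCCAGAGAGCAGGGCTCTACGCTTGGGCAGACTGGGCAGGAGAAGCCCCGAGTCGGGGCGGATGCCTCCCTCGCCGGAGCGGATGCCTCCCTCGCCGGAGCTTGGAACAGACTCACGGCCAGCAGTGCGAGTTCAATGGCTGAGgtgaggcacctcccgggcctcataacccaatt
The shorter transcript took 92.5% (WT) and 93.3% (CD36_KO) of the Rmrp counts. The extra 10 bases are all that divides the transcripts, so the split is uncertain and Rmrp is given as their sum.

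The libraries held 10072218 (WT) and 10363699 (CD36_KO) estimated counts, 2497048 to 2611740 per lane. At a limit of 5 CPM for the mean of both libraries (counts per 1000000 after scaling by TMM, a composition correction) 12167 genes counted as measured. All 6 members had a mean above that limit, but Vaultrc5 (38.7 CPM against 1.35 CPM) only through the WT library. The targeted gene, Cd36, had 1194 counts against 358 (log2 ratio -1.98, 95% counting interval -2.15 to -1.80). The libraries also differed in cell markers. Summed TPM (transcripts per 1000000, which corrects for length) of 10 CD8 T cell markers was 141 to 155 in WT lanes and 679 to 749 in CD36_KO lanes, and that of 8 melanoma markers was 1169 to 1260 against 415 to 427. The sum of 8 macrophage markers was 1704 to 1802 against 1907 to 1963, most of it Lyz2 (1255 to 1340 against 1504 to 1532). The other 7 macrophage markers summed to 433 to 462 against 403 to 438, and with TMM-scaled counts 2 of the 8 were at least 2-fold lower and 0 higher (median log2 ratio -0.47). Hepatocyte markers summed to 91.8 to 122 against 382 to 415, and without Trf (62.8 to 93.2 against 100 to 130) the other 7 to 24.1 to 30.2 against 278 to 285. B cell markers summed to 2.09 to 4.89 against 25.2 to 30.7 and fibroblast markers to 117 to 134 against 39.4 to 49.0. No marker stood at 0 in all lanes, and markers of cells other than CD8 T cells were detected in both libraries. The effective lengths in the tables implied mean fragments of 161 bases in WT lanes and 194 in CD36_KO lanes. The part that cell makeup and fragment length had in the results below was not tested. In bulk RNA, fewer cells of a type and less RNA per cell cannot be told apart.

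All 5 families made up a smaller share of the counts in the CD36_KO library. The 6 genes together took 9.49% of all WT counts (exact 95% binomial interval 9.47 to 9.50) and 6.72% of all CD36_KO counts (6.70 to 6.73). Per length, the sum went the other way: together they took 32.0% of the TPM of the WT library and 35.3% of that of the CD36_KO library. That rise was in 7SL alone (26.3% against 31.2%). Rpph1 was level in TPM, and 7SK, Rmrp and Vaultrc5 were lower in the CD36_KO library. Intervals here and below cover counting error only, and reads that carry no molecular identifiers do not stand for independent molecules.

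7SL was by far the most abundant. Rn7s1 had 97511, 96243, 97397 and 96215 estimated counts in WT lanes 1 to 4 and 76296, 75403, 75916 and 75072 in CD36_KO lanes, and Rn7s2 the same values. All CD36_KO lanes lay below all WT lanes. The sum of the pair took 7.69% of the WT counts (7.68 to 7.71) and 5.84% of the CD36_KO counts (5.83 to 5.86). With TMM scaling the log2 ratio of CD36_KO over WT was -0.59 (-0.60 to -0.59), 1.51-fold lower. In TPM the order of the libraries reversed: Rn7s1 stood at 127041, 134041, 132140 and 133499 in WT lanes and at 156623, 154209, 156301 and 155886 in CD36_KO lanes, a log2(TPM + 1) ratio of 0.24. Again no lanes overlapped, which speaks only to technical spread. Which of the 2 libraries was higher in 7SL thus depended on the scale.

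7SK had 23115, 22637, 23158 and 23092 counts in WT lanes and 11423, 11129, 11285 and 11113 in CD36_KO lanes. No CD36_KO lane came near a WT lane. Its share of counts was 0.913% (0.908 to 0.919) against 0.434% (0.430 to 0.438), and its log2 ratio was -1.27 (-1.29 to -1.26), 2.41-fold lower. The TPM level was 26010 ± 679 (SD over 4 lanes of 1 library) against 18729 ± 240. The lanes stayed apart on that scale too, with a log2(TPM + 1) ratio of -0.47.

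The RNAs of the related enzymes RNase P and RNase MRP parted. Rpph1 had 14198, 13601, 14063 and 13742 counts in WT lanes and 9295, 9180, 9411 and 9191 in CD36_KO lanes, 0.552% (0.548 to 0.557) and 0.358% (0.354 to 0.361) of all counts. Rmrp had 8270, 8138, 8115 and 8083 against 2249, 2146, 2239 and 2194, or 0.324% (0.320 to 0.327) and 0.0852% (0.0834 to 0.0870). Both sets of lanes were separate between genotypes, but Rmrp was 4.36-fold lower (log2 ratio -2.12, -2.16 to -2.09) and Rpph1 1.77-fold lower (-0.82, -0.84 to -0.80). In TPM, Rpph1 was level: 16476, 16851, 16981 and 16987 in WT lanes and 16693, 16443, 16968 and 16662 in CD36_KO lanes, ranges that overlapped, with a log2(TPM + 1) ratio of -0.01. Rmrp remained lower in TPM, at 13498 ± 298 against 5708 ± 128 (SD over 4 lanes of 1 library), a log2(TPM + 1) ratio of -1.24.

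The vault RNA was the rarest and the most unequal of the 6. Vaultrc5 (ENSMUSG00000065145.1) is the shortest, with 143 bases on the plus strand of chromosome 18 (36801866 to 36802008). It had 87, 100, 95 and 82 counts in WT lanes and 5, 3, 5 and 2 in CD36_KO lanes. Its totals were 364 (exact Poisson interval 328 to 403) and 15 (8.40 to 24.7). Vaultrc5 reached the 5 CPM limit only through the library where it is high, so it had to differ to pass. The log2 ratio was -4.84 with the widest interval of the members, -5.69 to -4.10, and the WT level was 28.6 times that of the CD36_KO library. In TPM it stood at 662 ± 66.6 against 45.8 ± 18.3 (SD over 4 lanes of 1 library). At 143 bases it is shorter than the mean fragment of either library, so its effective length was only 27.1 bases in WT lanes and 19.7 in CD36_KO lanes, and 1 count was worth 7.27 TPM (WT) or 12.2 TPM (CD36_KO).

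**Figure D1:**
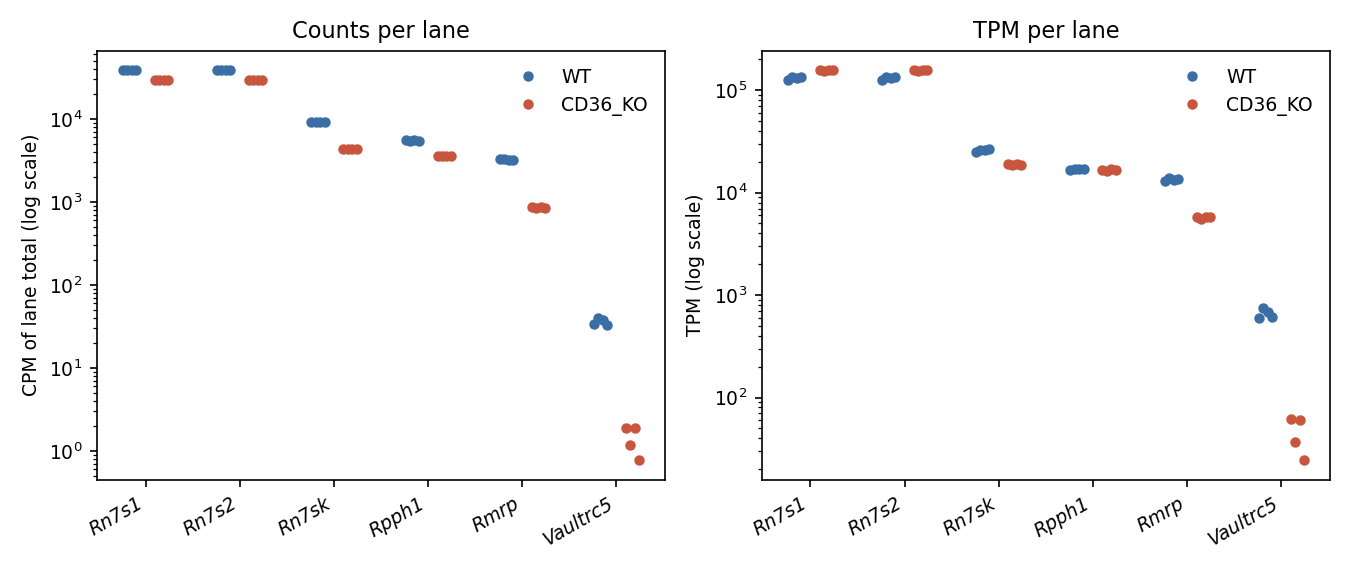
Each point is 1 lane, with WT in blue and CD36_KO in red. The left panel gives counts per 1000000 of the lane total and the right panel TPM, both on log axes. In counts all 4 CD36_KO lanes lie below all 4 WT lanes for each RNA. In TPM, Rn7s1 and Rn7s2 are higher in CD36_KO, Rpph1 overlaps, and Rn7sk, Rmrp and Vaultrc5 are lower.

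With TMM scaling, 3 of the 6 genes (Rn7sk, Rmrp and Vaultrc5) were at least 2-fold lower and had a counting interval that excluded no difference. Of all 12167 measured genes, 10.7% were called lower and 6.51% higher by the same rule, 17.2% in either direction. The members were chosen with this contrast known, so nothing is read from their count. The same 3 were lower with total counts, where 7.78% of genes were lower, 8.94% higher and 16.7% either. They were also lower with DESeq2 size factors (10.4%, 6.63% and 17.0% of genes) and with protein-coding counts as the denominator (8.29%, 8.53% and 16.8%). On log2(TPM + 1), Rmrp and Vaultrc5 were lower and 0 of the 6 were higher, beside 2.66% and 12.3% of genes.

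The scaling moved all genes together as well. Over the measured genes the median log2 ratio was -0.13 with TMM, 0.06 with total counts, -0.12 with DESeq2 size factors, 0.03 with protein-coding counts as the denominator and 0.37 in TPM. Relative to that median, every member was below the typical gene, both in counts and in TPM. The 4 scalings of counts shift all genes alike, so by construction the gap to the median is the same in each of them. Only TPM could give another gap. With TMM the gap was -0.46 for 7SL, -0.69 for Rpph1, -1.14 for 7SK, -1.99 for Rmrp and -4.71 for Vaultrc5. In TPM it was -0.12, -0.38, -0.84, -1.61 and -4.19 in the same order. The order of the 5 families was the same in counts and in TPM, from 7SL as the least unequal to Vaultrc5. TPM is computed from the same counts, so the shared order is no separate evidence.

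**Figure D2:**
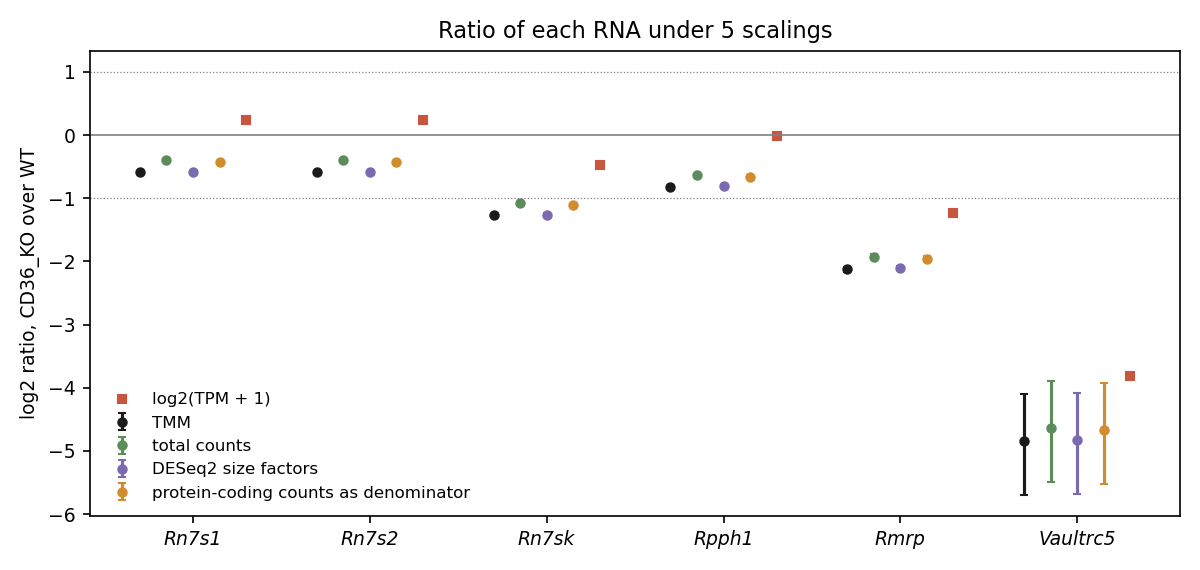
The vertical axis is the log2 ratio of CD36_KO over WT for each RNA, with 1 symbol per scaling, 95% counting intervals for the 4 scalings of counts and no interval for TPM. Dotted lines mark a 2-fold difference. The TPM squares sit above the other symbols, at 0.24 for Rn7s1 and Rn7s2 and -0.01 for Rpph1, and Rmrp and Vaultrc5 stay below the lower dotted line throughout.

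The step from counts to TPM can be split exactly. For a transcript, the log2 ratio of TPM is the sum of a count term, an effective length term and a term for the lane denominator, and all 3 come from the deposited values. The denominator term was 0.29 for every transcript. The effective length term was 0.31 for 7SL, 0.27 for 7SK, 0.28 for Rpph1, 0.35 for the shorter Rmrp transcript and 0.46 for Vaultrc5, largest for the shortest RNA. Effective length is by construction shorter where fragments are longer: that of 7SL was 145 of 300 bases in WT lanes and 117 in CD36_KO lanes, and that of 7SK 174 against 144 of 331. The count term was -0.36 for 7SL, smaller in size than the other 2 terms together, which gives the reversal to 0.24. For Rpph1 the count term of -0.58 was cancelled, and for 7SK (-1.03), that Rmrp transcript (-1.87) and Vaultrc5 (-4.70) it was not.

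**Figure D3:**
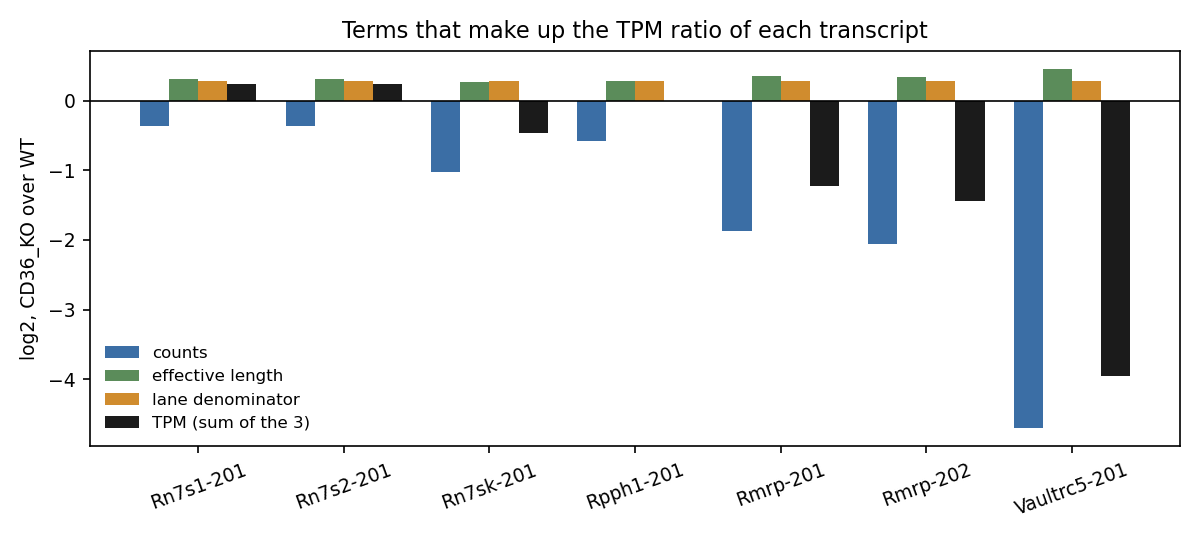
Bars start at 0 and give, per transcript, the log2 difference (CD36_KO over WT) in estimated counts, effective length and lane denominator, and their sum, the TPM ratio. The effective length and denominator bars are all positive. The TPM bar is positive for Rn7s1 and Rn7s2, near 0 for Rpph1 and negative for the others.

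Ratios between members do not depend on the library scaling, and they show how unevenly the families differed. The WT library had 8.42 counts of 7SL per count of 7SK (8.36 to 8.48) and the CD36_KO library 13.5 (13.3 to 13.6). Per length, 7SL outnumbered 7SK 10.1 ± 0.0911 to 1 in TPM in the WT lanes and 16.6 ± 0.110 to 1 in the CD36_KO lanes (SD over 4 lanes of 1 library). The log2 change of that count ratio was 0.68 (0.66 to 0.69). The ratio of 7SL to Rpph1 was the steadiest, 13.9 counts against 16.3, a log2 change of 0.23 (0.21 to 0.25). Rpph1 and Rmrp, whose particles share most proteins, stood at 1.71 counts to 1 in WT (1.68 to 1.73) and at 4.2 to 1 in CD36_KO (4.10 to 4.30). In TPM, Rpph1 exceeded Rmrp 1.25-fold in WT lanes and 2.92-fold in CD36_KO lanes. These 10 possible pairs use only 6 chosen genes and 1 library a genotype, so the changes are descriptions of 2 libraries.

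By TPM, which compares genes per length, the order in the WT library was 7SL, 7SK, Rpph1, Rmrp and Vaultrc5, and it was the same in the CD36_KO library. 7SL took 26.3% of the WT TPM and 31.2% of the CD36_KO TPM, 7SK 2.60% and 1.87%, Rpph1 1.68% and 1.67%, Rmrp 1.35% and 0.571%, and Vaultrc5 0.0662% and 0.00458%. The neighbours in this order that came closest were 7SK and Rpph1 in the CD36_KO library, at 18729 and 16692 TPM, and their lanes did not overlap.

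Length went along with the ratios of structural RNAs. Among structural RNA transcripts (misc_RNA, ribozyme, snRNA, snoRNA and scaRNA in the files) 74 had a mean of at least 5 CPM, and 82.4% of these were at least 2-fold lower in the CD36_KO library and 1.35% higher, 83.8% in all. Of protein-coding transcripts 16.3% were lower and 9.06% higher, 25.4% in all. Of 31 structural transcripts above 150 and up to 200 bases, 31 were lower (median log2 ratio -4.14), and of 12 up to 150 bases other than Vaultrc5, 10 were lower (median -3.57). Above 200 and up to 250 bases 14 of 16 were lower (median -2.66). Above 250 and up to 350 bases, where the other members lie, 3 of 8 non-members were lower and 1 was higher, with a median of -0.48. Vaultrc5 (-4.84) was thus lower than the median of its length class, and in the longer class the shorter Rmrp transcript (-2.11), 7SK (-1.27), Rpph1 (-0.82) and 7SL (-0.59) all lay below the median of the non-members. Single RNAs of similar length varied. Near Vaultrc5, Gm25776 (143 bases) was at -3.14, Gm22442 (144 bases) at -0.12, Snord15b (145 bases) at -5.01 and Gm24336 (146 bases) at -0.74. Near Rmrp, Scarna13, a guide RNA of 275 bases, was at -2.34, Gm23547 (271 bases) at -1.29 and Gm25395 (272 bases) at -0.36. Near 7SK, Scarna10 (325 bases) stood at -0.12, Gm27896 (317 bases) at 0.36 and Gm22009 (343 bases) at -1.62. Some of these transcripts, like Vaultrc5, reached the 5 CPM limit only through the library where they are high, so they had to differ to pass. Examples are Snord22 (138 counts in WT against 7 in CD36_KO) and Rnu12 (217 against 6). The numbers called lower are therefore not read as a result about short RNAs. These length classes were set after the values were seen, and many short RNAs have near-identical copies among which reads are divided. Several copies carry the same values, such as Rnu1a1 and Gm22068 (each 1555 counts against 104, -4.14). Transcripts of Rnu3b1 and Rnu3b2 likewise had 5179 against 162 each (-5.24). The numbers of transcripts and the medians of the classes thus count some values more than once. Whether the difference in fragment length has a part in the pattern was not tested.

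**Figure D4:**
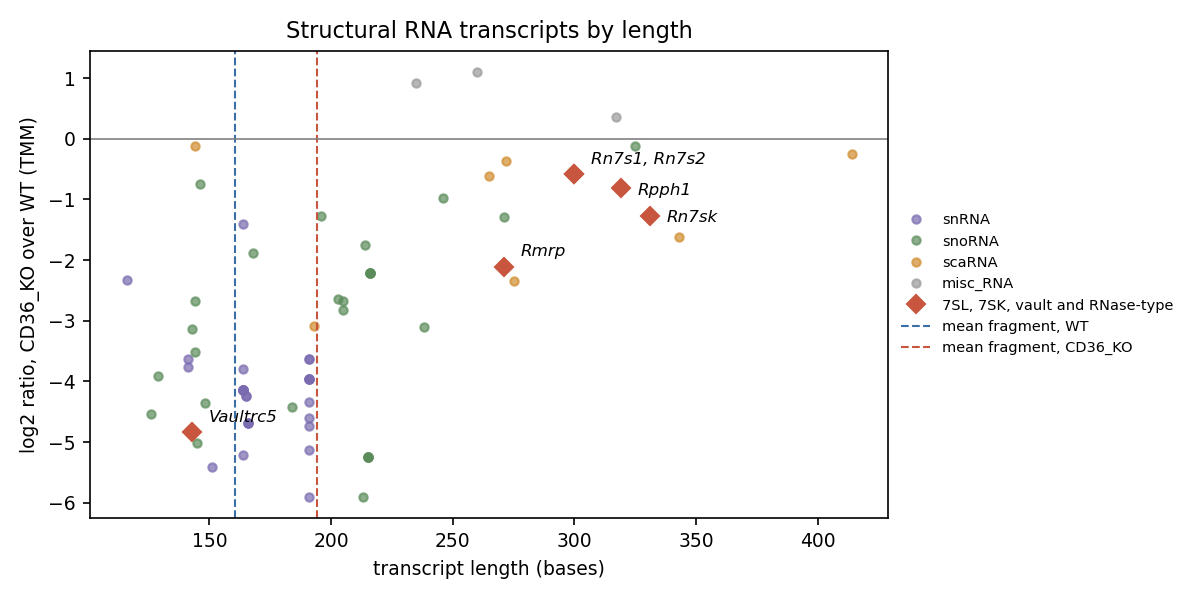
Each point is a structural RNA transcript whose mean reached 5 CPM, placed by its length in bases and its log2 ratio of CD36_KO over WT (TMM), and diamonds are the members. Dashed lines are the mean fragment lengths of 161 (WT) and 194 (CD36_KO) bases. Most transcripts of up to 250 bases lie below -1, and those above 250 and up to 350 bases spread from -2.34 to 1.10.

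Genes for the proteins that bind or make these RNAs mostly lay within 2-fold. Over 7 lists of particle and RNA polymerase III genes, 69 genes were measured, of which 1 was at least 2-fold higher, 2 were lower and 66 lay between, and their median log2 ratio was -0.03 beside -0.13 for all measured genes. In the background 6.51% of genes were higher and 10.7% lower. In TPM the list median was 0.51 beside 0.37, and 8 of the 69 were at least 2-fold higher and 0 lower, beside 12.3% and 2.66% of all genes. Of these 8, 5 were initiation factors and regulators, and Ccnt1, Polr3b and Xrn2 were the others.

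The 7SK particle and P-TEFb list had 9 measured genes of 10, 0 higher and 0 lower, with a median of -0.04. Larp7 (117 counts against 134, log2 ratio -0.04), Mepce (242 against 302, 0.08) and Hexim1 (222 against 279, 0.09), core partners of 7SK, all had intervals that included 0. Hexim2, under the level limit, had 31 counts against 20 (-0.87, -1.76 to -0.01). Cdk9, the kinase, was at -0.27 and Ccnt1, its cyclin, at 0.28. The hnRNP proteins that bind 7SK released from P-TEFb were the lowest, Hnrnpa1 at -0.59 (-0.68 to -0.49) and Hnrnpa2b1 at -0.55 (-0.62 to -0.48), and the splicing factor Srsf2 was at -0.41.

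For the signal recognition particle and its receptor, 10 genes were measured, 1 higher and 0 lower, with a median of -0.33. The 1 higher gene was Srp54b (49 counts against 133, log2 ratio 1.20, 0.72 to 1.71), a copy of the 54 kDa subunit. Its paralogs Srp54a (-0.29) and Srp54c (-0.51) went the other way. Reads of such similar copies are divided by estimate, and the lanes of Srp54b disagreed: 16.2, 11.0, 8.07 and 13.7 counts in WT lanes but 9.91, 17.5, 53.0 and 52.7 in CD36_KO lanes. Without CD36_KO lane 3 or lane 4 the gene was no longer called. The 3 copies together had 1147 counts against 1141. Whether the division of reads among them has a part in the call was not tested. The receptor subunits Srpr (-0.48) and Srprb (-0.64) were the other large values, and the Alu-domain proteins Srp9 (-0.31) and Srp14 (-0.34) sat near the median.

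The protein subunits of RNase P and RNase MRP had 7 measured genes of 11, with 0 higher, 0 lower and a median of -0.42. Rpp25l (-0.55), Pop1 (-0.50, the largest subunit) and Rpp14 (-0.43) were the lowest of these, and Rpp40 the highest at 0.33 (-0.22 to 0.89). With 48 to 120 counts in the WT library these were among the least covered genes. Rpp38 of the same list, under the level limit, had 41 counts against 15 (log2 ratio -1.69, -2.65 to -0.81). Of the vault proteins, Mvp, the shell protein, was at -0.52 (-0.67 to -0.37), Parp4 at 0.34 (0.19 to 0.50) and Tep1 at 0.06 (-0.09 to 0.21), so 0 of 3 were 2-fold different, while Vaultrc5 itself stood at -4.84.

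RNA polymerase III subunits numbered 13 measured, 0 higher and 1 lower, with a median of 0.04. Polr3b, which with Polr3a forms the catalytic centre, was at 0.39, and Polr1c and Polr1d, shared with RNA polymerase I, at -0.39 and -0.36. Of 19 initiation factors and regulators 0 were at least 2-fold higher with TMM scaling and 1 was lower, Snapc2 of the complex that binds promoters such as that of 7SK (78 counts against 46, -1.0, -1.56 to -0.46; lanes of 17 to 23 and 10 to 14). Bdp1, a subunit of TFIIIB, was at 0.66 (0.49 to 0.83) and Pou2f1 at 0.60 (0.41 to 0.79), Gtf3c1 of TFIIIC was at -0.48, and Maf1, the repressor of RNA polymerase III, at 0.02 (-0.19 to 0.23). On log2(TPM + 1), 5 of the 19 were at least 2-fold higher and 0 lower (Bdp1 1.20, Brf1 1.13, Pou2f1 1.13, Snapc3 1.10 and Gtf3c2 1.00), beside 12.3% of all genes higher. Among 8 genes for transcript binding and turnover 0 were called in either direction. The 5′ to 3′ exonuclease Xrn2 came closest (704 counts against 1490, 0.84, 0.71 to 0.97), Dis3 was at -0.43, Toe1 at 0.27, and Ssb, the La protein that binds new RNA polymerase III transcripts, at -0.02 (-0.20 to 0.16). Both lower calls were lost with total counts and also without WT lane 1, WT lane 3 or CD36_KO lane 2.

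**Figure D5:**
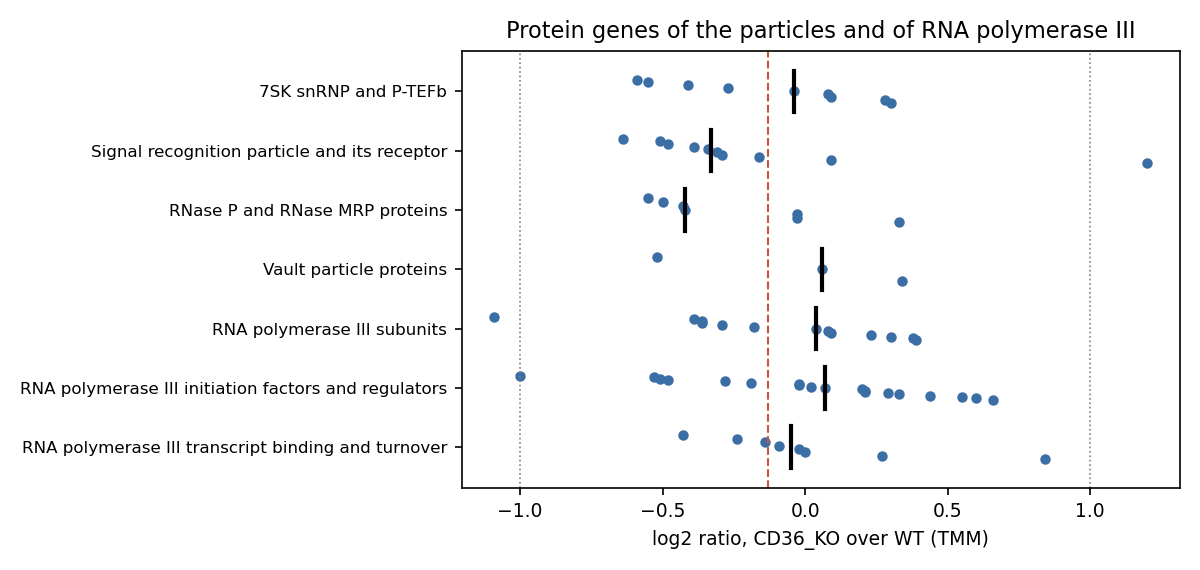
Each point is a measured gene of 1 of the 7 lists, placed by its log2 ratio of CD36_KO over WT with TMM scaling; vertical offsets only separate points. Black bars are list medians, the dashed line is the median of all measured genes (-0.13) and dotted lines mark a 2-fold difference. Nearly all points lie between the dotted lines, with Srp54b above the upper line and Snapc2 at the lower.

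A list of other structural and nuclear RNAs held 21 genes in the files, among them the long RNAs Malat1 and Neat1. Of these, 8 were measured, 0 higher and 5 lower, with a median of -3.75. Of all measured genes 6.51% were higher and 10.7% lower, and of structural RNA transcripts 82.4% were lower. Leaving out the long RNAs, 6 were measured and 5 were lower, with a median of -4.02. Scarna2, which was not called, had 2235 counts against 2217 (log2 ratio -0.25). Rnu12, an RNA of the minor spliceosome, had 217 counts against 6 (log2 ratio -5.41), Rnu1a1, a U1 RNA, 1555 against 104 (-4.14), and Rnu3a, a U3 RNA, 3227 against 226 (-4.07). Rnu12 reached the 5 CPM limit only through the WT library (23.1 CPM against 0.541 CPM). Malat1, the most counted of the list, had 65556 against 75690 (-0.03). The Y RNAs, which RNA polymerase III also makes and which are short like the vault RNA, were under the level limit: Rny3 had 56 counts against 3 and Rny1 14 against 2, named here after their values were seen.

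Genes around the members had ratios of their own. Rps29, a ribosomal protein gene that starts 109 bases from Rn7s1 on the other strand, had 1268 counts against 1851 (log2 ratio 0.31, 0.20 to 0.41), beside -0.59 for Rn7s1. Parp2, which starts 74 bases from Rpph1 on the other strand, had 167 against 225 (0.19, -0.10 to 0.49). Ccdc107 overlaps Rmrp by 164 bases on the other strand and had 47 against 41, and Ccnb1ip1 overlaps Rpph1 by 284 bases on the same strand and had 9 against 6. The overlapping genes thus held few counts beside 32606 and 8828 for Rmrp and 55604 and 37077 for Rpph1. C920006O11Rik, a lincRNA beside Rn7sk, had 13 against 25, and the 4 microRNA annotations that overlap the 7SL genes by 70 or 77 bases (Gm47287, Gm47295, Gm47299 and Gm47305) had 0 in both libraries. No source used here gives the strand setting of the counting, so reads of overlapping genes on opposite strands cannot be told apart.

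The genes whose levels over the 8 lanes were most like those of Rn7s1, by the root mean square distance of centred log2 CPM among 1294 genes whose mean reached 100 CPM, were Nceh1 (0.0231), Stat3 (0.0252), Psap (0.0289), Hspa8 (0.0311) and Hdlbp (0.0324). Their log2 ratios were -0.60, -0.58, -0.64, -0.55 and -0.64. The 8 lanes come from 2 libraries, so the measure mostly picks genes with a similar ratio.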

How the data were processed

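RNA was measured in 8 samples, 4 lanes of 1 library for each of 2 genotypes. The deposited tables give estimated counts, TPM and effective length per transcript. Per the submitters' processing notes the authors used kallisto with GRCm38.p6, and DESeq2 is named there. The sources used here give no versions, read layout or annotation release. The estimated counts, as deposited, carry no normalisation. The deposited TPM values were scaled by the authors' tool for effective length and lane total. Effective lengths, per the file headers another column, gave fragment lengths and the split of TPM ratios. Pseudoalignment divides reads among similar transcripts.

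Estimated counts were summed by gene symbol and over lanes, then rounded. TMM factors (edgeR 4.0.16, R 4.3.3) were 0.934 and 1.071. Ratios carry exact Clopper-Pearson 95% counting intervals, and those of ratios between members use a normal approximation on the log scale for the change. A gene was called at a 2-fold difference with an interval excluding 0, over genes whose mean reached 5 CPM. No p-value is given, because variation between animals is not measured by lanes of a single library. The rule was tested on simulated data. Alternatives were total counts, DESeq2 1.42.0 size factors, protein-coding counts as denominator, log2(TPM + 1), other level limits and leaving out lanes. TMM from protein-coding genes and TMM excluding the members were added after the data were seen. The members and lists were chosen with earlier results of these data known. Named are all members, up to 3 genes per list with the largest ratios plus the most abundant, neighbours starting within 1000 bases or overlapping, and 5 genes most like Rn7s1. Further genes of the lists, such as core partners, were named after their values were seen. A list of 10 neighbour genes, written before coordinates were checked, had 8 measured (1 higher, Icos at 1.47, and 2 lower, Car9 at -2.13 and Gsta4 at -2.77). Only Parp2, Ccdc107 and Rps29 of it overlap a member or start within 1000 bases. Sequences and coordinates are from GENCODE M21 on GRCm38, in which 99.1% of the 142351 transcripts were found. A gene and some sequences that the rule would show are not reported here.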

Additional observations from a re-analysis of the deposited data

Results flagged for a closer look

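In the CD36_KO library, lane 1 stood apart for Rn7sk, at 4374 counts per 1000000 of the lane total, while the other lanes held 4321, 4323 and 4330. Its gap to the next lane was 0.831 of the range of the 4 lanes, just above Dixon's 95% critical value. Chance flags about 1 in 20 such groups and 24 groups of 4 lanes were examined. The chi-square of the 4 CD36_KO lanes for Rn7sk was 0.37 per degree of freedom, a smaller spread than counting error gives on average. The WT lanes held 9065 to 9228.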

How the results depend on the processing

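No paired analysis was possible because the samples are lanes of 1 library per genotype and no result comes from a test. With total counts the log2 ratios were -1.07 (Rn7sk), -0.40 (Rn7s1, Rn7s2 and their sum), -1.93 (Rmrp), -0.63 (Rpph1) and -0.50 (all 6), with protein-coding counts as the denominator -1.11, -0.43, -1.96, -0.66 and -0.53, and with TMM factors from protein-coding genes -1.15, -0.47, -2.0, -0.70 and -0.57. DESeq2 size factors gave -0.58 for Rn7s1, Rn7s2 and their sum and -0.68 for all 6. Log2(TPM + 1) gave -0.47 (Rn7sk), -1.24 (Rmrp), -0.01 (Rpph1) and -3.82 (Vaultrc5), and reversed Rn7s1, Rn7s2 and their sum to 0.24 and all 6 to 0.14; the terms that make up TPM are in the report. TMM factors excluding the 6 members left every member ratio as it was to 2 decimals.

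Leaving out 1 lane gave ranges of -1.27 to -1.21 (Rn7sk), -0.59 to -0.53 (Rn7s1, Rn7s2 and their sum), -2.12 to -2.06 (Rmrp), -0.82 to -0.76 (Rpph1), -5.00 to -4.63 (Vaultrc5) and -0.69 to -0.63 (all 6). Apart from Vaultrc5, the ratios moved towards 0 when any WT lane was left out, with TMM factors of 0.953 to 0.955 (WT) and 1.047 to 1.049 (CD36_KO) in place of 0.934 and 1.071. Both ends of the Vaultrc5 range came from leaving out CD36_KO lanes, -5.00 without lane 1 or 3 and -4.63 without lane 4. Shares of counts ranged from 0.910% to 0.916% and 0.432% to 0.434% (Rn7sk, WT and CD36_KO), 3.84% to 3.85% and 2.92% to 2.92% (Rn7s1 and Rn7s2), 0.323% to 0.325% and 0.0849% to 0.0857% (Rmrp), 0.550% to 0.554% and 0.357% to 0.358% (Rpph1), 0.00348% to 0.00373% and 0.000129% to 0.000167% (Vaultrc5), and 9.48% to 9.49% and 6.71% to 6.73% (all 6). Without mitochondrial and ribosomal RNA genes in the denominator, the WT and CD36_KO shares were 1.10% and 0.553% (Rn7sk), 4.62% and 3.73% (Rn7s1 and Rn7s2), 0.389% and 0.109% (Rmrp), 0.663% and 0.456% (Rpph1) and 11.4% and 8.57% (all 6), and the WT share of Vaultrc5 was 0.00434%.

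Of the 7 protein lists, 1 gene was higher with TMM, 2 with total counts, 8 on log2(TPM + 1), 0 at a mean of at least 20 CPM and 0 to 1 with 1 lane left out (0 without CD36_KO lane 3 or 4). The 2 lower genes became 0 with total counts, 1 with DESeq2 size factors, 0 on log2(TPM + 1), 0 at a mean of at least 20 CPM and 0 to 2 with 1 lane left out (0 without WT lane 1 or 3 or CD36_KO lane 2; 1 without WT lane 2 or 4 or CD36_KO lane 1 or 3). Over all genes, the 792 higher became 1502 on log2(TPM + 1), 2377 with no filter on low counts and 344 at a mean of at least 20 CPM, and the 1306 lower 324, 2460 and 672. With 1 lane left out they numbered 790 to 874 and 1178 to 1323. With no filter on low counts, 1 gene of the 7 protein lists was higher and 3 were lower. Depth limits Vaultrc5 most, with 15 counts in the CD36_KO library.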

Other observations

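By class, snRNA took 0.504% of the counts of the WT library and 0.0432% of those of the CD36_KO library (log2 ratio -3.74, TMM), and snoRNA 0.469% and 0.0836% (-2.69). The scaRNA class, guides of snRNA modification, stood at -0.64. The misc_RNA class (-0.65) was nearly all members: of 868234 WT counts, 7SL had 774730 and 7SK 92002, and it also holds Vaultrc5. The same held for the ribozyme class (-1.16). Of its 85758 WT counts, Rpph1 had 55604 and the shorter Rmrp transcript 30143. These 2 class values thus restate the members. Protein-coding transcripts were at -0.20 and mitochondrial ribosomal RNA at 0.18. The separate rRNA class took 0.224% of the WT counts and 0.0233% of the CD36_KO counts (-3.46), and the miRNA class was at -1.16.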
